A study of Mus musculus with 76 samples.

Results

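The tumors compared here were CT26 and 4T1 tumors treated with alum alone, chosen by their labelled cell line and treatment, with no catalase in any of them. There were 5 tumors of each line, or 10 of the 38 tumors of the series, each sequenced as 2 technical libraries (20 of 76). CT26 is a colorectal carcinoma line and 4T1 a mammary carcinoma line, both from Balb/c mice and both used here without any engineered construct. The hosts were female Balb/c mice of 6 to 12 weeks. On day 0, 1000000 CT26 cells or 500000 4T1 cells were placed under the skin of the flank. Per the labels, 100 µg of alum, an aluminum salt that stays where it is injected, was given into the tumor on day 6 and the whole tumor was taken for RNA on day 8. All 10 tumors therefore shared the host strain, the site and the alum, and differed in the implanted line and in the number of cells implanted. Each line is a single established line grown in a host with an intact immune system. A difference between the groups is one between CT26 and 4T1 tumors as implanted here, and not between colorectal and mammary carcinoma in general. The line and the number of cells implanted cannot be told apart in any of the results.

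A transplanted tumor is a mixture of carcinoma cells with leukocytes, fibroblasts and vessels of the host. Carcinoma cells that keep an epithelial state hold together through E-cadherin and tight junctions and fill their cytoskeleton with keratins, while cells in a mesenchymal state express N-cadherin and the transcription factors of the Zeb, Snail and Twist families, which are known to repress epithelial genes. Cytotoxic T cells and natural killer cells carry granzymes and perforin, and the interferon-γ that they release is known to induce guanylate-binding proteins, antigen-presenting molecules and the chemokine Cxcl9 in neighboring cells. In RNA from a whole tumor, a lower level of a marker can mean fewer cells of that type or less RNA per cell, and these cannot be told apart.

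Total counts per tumor, summed over both libraries, ranged from 1972842 to 7308877 in CT26 (median 5002683) and from 2713843 to 6992462 in 4T1 (median 4074219). Levels are given as CPM, counts scaled to a total of 1000000 per tumor after TMM scaling. The log2 fold changes are CT26 minus 4T1, so that a negative value means a higher level in 4T1. In edgeR's quasi-likelihood test, a gene was called at a Benjamini-Hochberg adjusted p of 0.05 or less. Of 12817 genes tested, 5434 (42.4%) were called, 2727 (21.3%) higher in CT26 and 2707 (21.1%) higher in 4T1, and 1366 (10.7%) and 1353 (10.6%) of them differed by 2-fold or more. The tumors of the lines did not overlap in CPM for 3833 genes (29.9%), 1842 higher in CT26 (14.4%) and 1991 higher in 4T1 (15.5%). The first principal component held 67.2% of the variance and separated the lines. Index tags placed the libraries in sequencing pools: all 5 CT26 tumors and 4T1 replicates 1 and 2 shared the same 2 pools, and 4T1 replicates 3 to 5 were in 2 others. For each list described, the number of members called in the 7 tumors of the shared pools, with fewer tumors in the fit and their own filter on low counts, is therefore given beside the main count, those higher in CT26 first. For a gene named, the value in these tumors is given where the call was lost or the fold moved by over 1.5 times, in some cases in the closing section.

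Epithelial adhesion, lymphocyte, interferon and matrix genes differed between the lines. Across 32 gene lists, chosen with earlier results of these data known, 32 of the 34 epithelial genes tested were higher in 4T1. In CT26, 16 of 17 cytotoxic and NK cell genes and 27 of 29 interferon genes were higher. In 4T1, 24 of 35 fibroblast and matrix genes were higher. Of all genes tested, 21.3% were higher in CT26 and 21.1% in 4T1, and each list count below stands beside these shares. Of 26 proliferation genes, 19 were not called, and neither were 7383 of all 12817 genes tested. The median log2 fold change over all genes tested was 0.02, against -4.81, 3.70, 1.94, -1.28 and 0.17 for these lists in the same order. For 18 of the 34 epithelial and 4 of the 35 fibroblast and matrix genes no CT26 tumor reached the level of the filter on low counts. For 4 of the 17 cytotoxic and NK cell genes no 4T1 tumor did. These genes passed the filter through the other line alone. Over all 12817 genes tested, the numbers were 315 without such a CT26 tumor and 168 without such a 4T1 tumor.

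**Figure D1:**
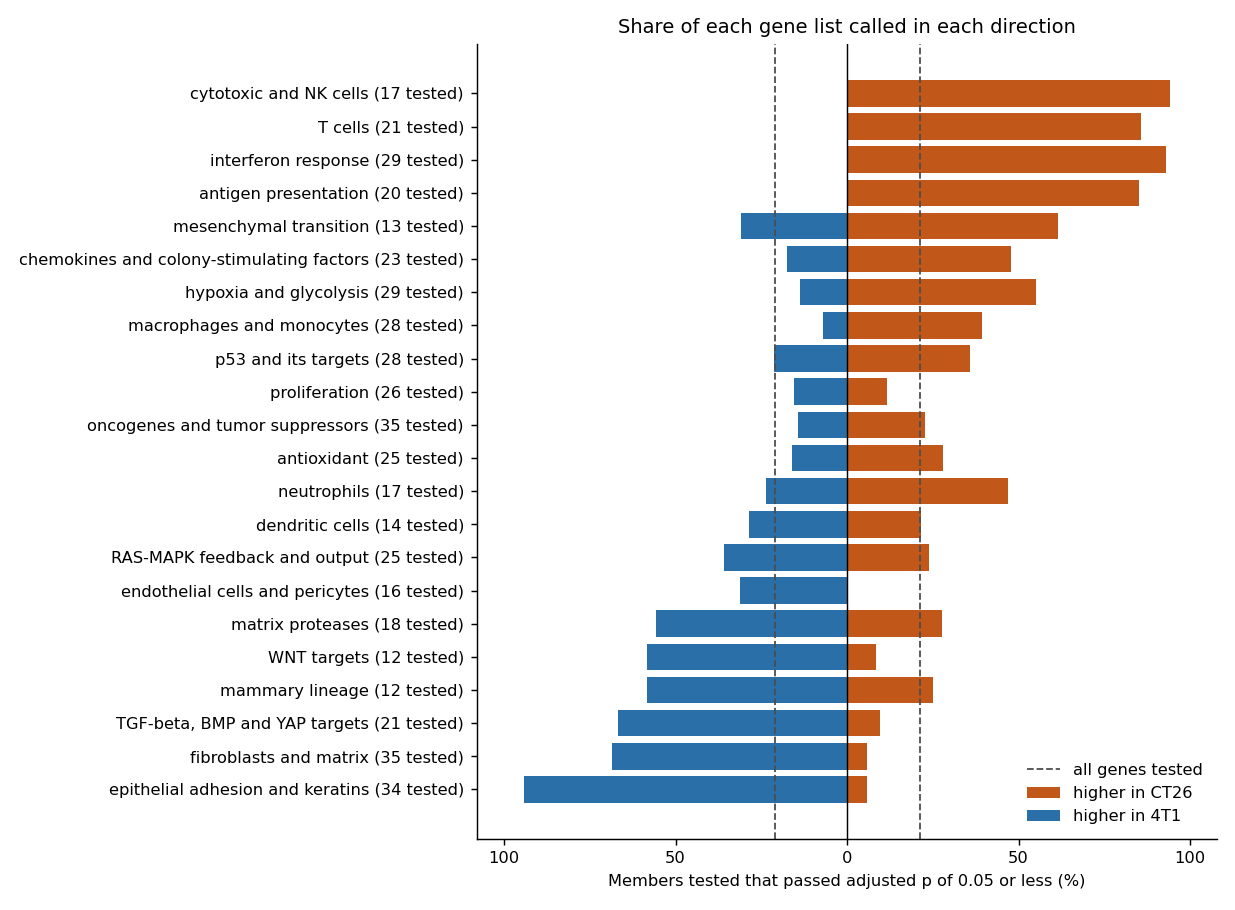
Share of tested members of each gene list called higher in CT26 (right) or higher in 4T1 (left), for the 22 lists with 12 or more tested members with dashed lines at the shares of all 12817 genes tested. The epithelial list lies almost wholly on the 4T1 side (32 of 34) and the interferon list almost wholly on the CT26 side (27 of 29). For 18 of the 34 epithelial genes no CT26 tumor reached the level of the filter on low counts.

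Most epithelial junction and keratin genes were higher in 4T1 tumors, and many of them were close to 0 in CT26 tumors. Epcam, an epithelial cell adhesion molecule (chromosome 17, 87635979 to 87651129, plus strand, GRCm38), was at 1.37, 5.85, 1.62, 2.88 and 1.43 CPM in the CT26 tumors and 445, 449.8, 299.8, 383 and 296 CPM in the 4T1 tumors. The lowest 4T1 tumor lay far above the highest CT26 tumor (log2 fold change -7.37, SE 0.32, adjusted p = 2.11e-10). Cdh1, which encodes E-cadherin, was at 4.12, 10.2, 1.35, 4.32 and 3.11 CPM in the CT26 tumors and 123, 126, 84.9, 128 and 90.5 CPM in the 4T1 tumors. Cdh1 had a log2 fold change of -4.80 (SE 0.33, adjusted p = 2.01e-08). Krt8, a keratin of simple epithelia, was at 6.66, 5.37, 6.88, 6.62 and 9.8 CPM in the CT26 tumors and 942, 979, 555, 726 and 632 CPM in the 4T1 tumors. Krt8 had a log2 fold change of -6.74 (SE 0.25, adjusted p = 8.18e-11). For both genes all 4T1 tumors were above all CT26 tumors. Lad1, which encodes ladinin of the basement membrane (1.69 ± 0.895 against 138 ± 30.8 CPM, log2 fold change -6.50), and Perp, a desmosomal and p53-induced gene (0.561 ± 0.546 against 53.8 ± 6.31 CPM, log2 fold change -6.46, SD, n = 5 tumors each), followed the same pattern.

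Of the 46 list members, 34 had enough counts to be tested and all of these were called, 32 higher in 4T1 (2 and 31 in the shared pools). The 2 exceptions were Krt80 and Cldn6. Krt80, a type II keratin, was at 9.21, 15.1, 13.3, 9.79 and 6.22 CPM in the CT26 tumors and 5.42, 2.28, 2.88, 3.44 and 3.62 CPM in the 4T1 tumors. Krt80 had a log2 fold change of 1.61 (SE 0.29, adjusted p = 0.000419), with no overlap. Cldn6, a claudin of embryonic epithelia, was at 8.82, 2.44, 6.47, 5.18 and 11.7 CPM in the CT26 tumors and had no count in any 4T1 tumor, which made it at least 56.1-fold higher in CT26 against a floor of 3 counts over the 4T1 group. The summed level of the 46 genes was 135 to 187 CPM (median 150.04) in the CT26 tumors and 2657 to 3704 CPM (median 3179.7) in the 4T1 tumors. For 18 of the 34 genes no CT26 tumor reached the CPM that the filter on low counts asks for, so these passed through the 4T1 tumors alone. In the shared pools the median log2 fold change of the list was -4.83.

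**Figure D2:**
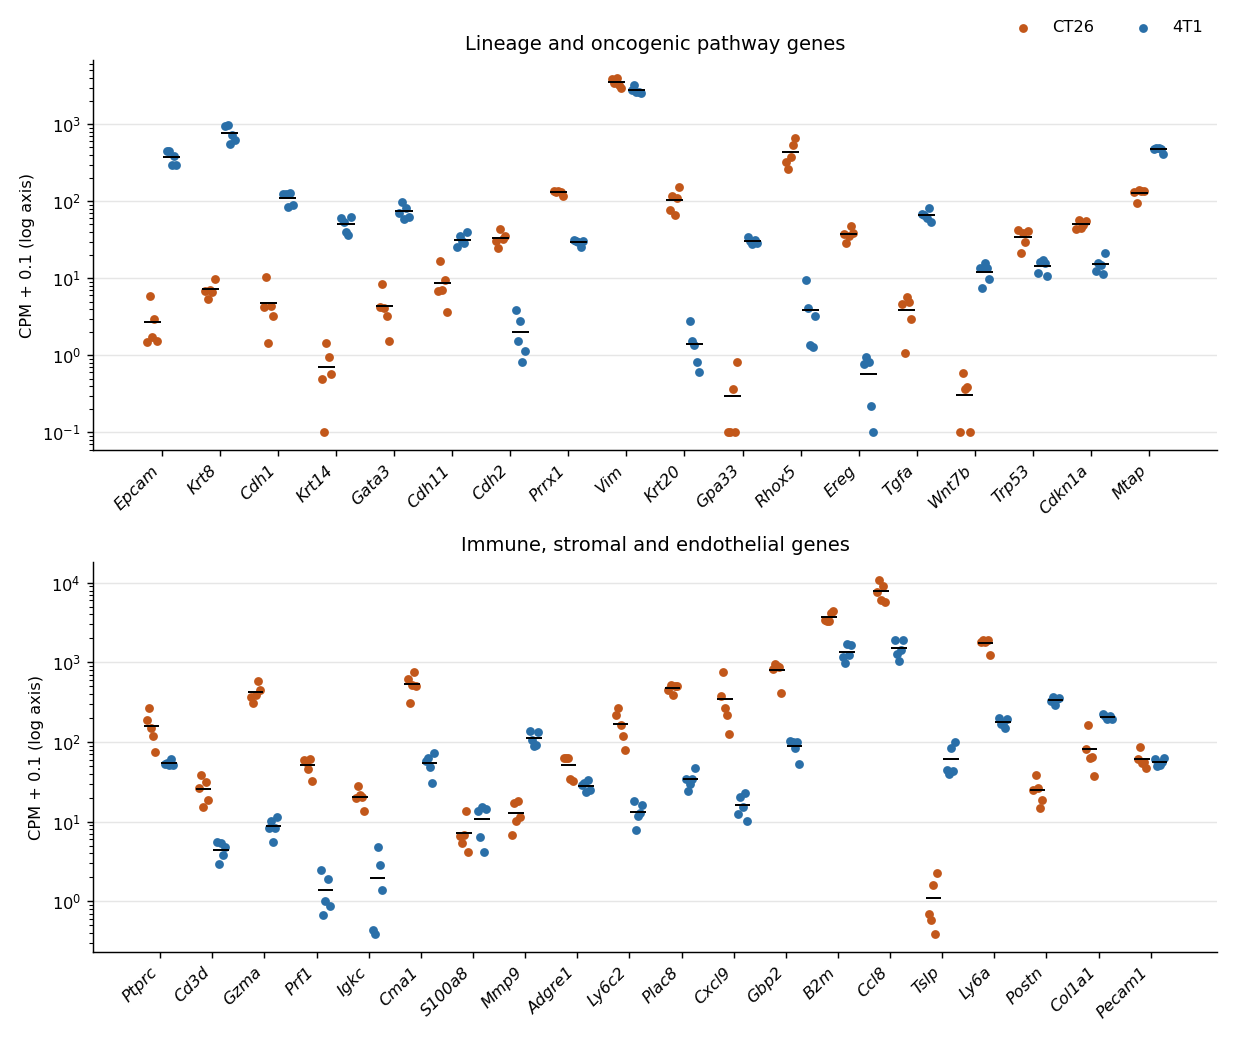
Level of selected genes in each of the 10 tumors, as CPM plus 0.1 on a log axis, with CT26 and 4T1 tumors as separate points and the group mean as a bar. Epcam lies between 1.37 and 5.85 CPM in CT26 and between 296 and 449.8 CPM in 4T1, and Gzma lies the other way round.

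Promoters of these genes were examined for the E-box CACCTG, the sequence that Zeb and Snail factors are known to bind. In RefSeq promoters of GRCm38.p6, taken as 250 bases before to 50 bases after each start, CACCTG was found on either strand in 21 of 28 promoters of the list (75.0%), which covered 23 of its 46 members, and in 6640 of 32851 promoters of all genes (20.2%). This is a description of letters and says nothing of binding. The list was made of epithelial genes, which Zeb and Snail factors are known to repress. This share therefore says nothing of a difference between the lines. The 250 bases before the start are shown for Epcam (chr17:87635729-87635978, plus strand) and Krt8 (chr15:102004343-102004592, minus strand), both higher in 4T1, and for Cldn6 (chr17:23679115-23679364, plus strand), the exception that was higher in CT26 and also holds the motif. Capitals mark CACCTG or its reverse complement, and each sequence is written in the direction of transcription. Starts are those of RefSeq, and for each gene the first promoter that holds the motif is shown. Part of the Krt8 stretch lies inside the gene as placed by the GENCODE annotation (101996698 to 102004482).
Epcam: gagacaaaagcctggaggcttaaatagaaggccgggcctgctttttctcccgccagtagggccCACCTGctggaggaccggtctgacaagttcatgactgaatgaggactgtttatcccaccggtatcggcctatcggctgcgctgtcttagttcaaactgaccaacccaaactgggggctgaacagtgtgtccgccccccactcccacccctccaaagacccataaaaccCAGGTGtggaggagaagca
Krt8: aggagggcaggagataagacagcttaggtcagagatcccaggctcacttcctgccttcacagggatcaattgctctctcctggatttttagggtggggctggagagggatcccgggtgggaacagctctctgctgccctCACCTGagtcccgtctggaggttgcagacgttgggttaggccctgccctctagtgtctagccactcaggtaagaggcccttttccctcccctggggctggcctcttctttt
Cldn6: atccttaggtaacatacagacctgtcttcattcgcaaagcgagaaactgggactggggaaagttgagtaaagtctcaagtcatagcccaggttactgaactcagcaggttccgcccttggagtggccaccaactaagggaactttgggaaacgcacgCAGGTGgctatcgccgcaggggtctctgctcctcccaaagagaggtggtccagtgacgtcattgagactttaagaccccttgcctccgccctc

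Most mesenchymal transcription factors showed the opposite direction, although the list was not uniform. Of 13 genes, 8 were higher in CT26, 4 were higher in 4T1 and 1 was not called (8 and 3 in the shared pools; median log2 fold change 0.95, and 1.00 there). Cdh2, which encodes N-cadherin, was at 30.4, 24.4, 43.8, 32.3 and 34.9 CPM in the CT26 tumors and 3.73, 1.43, 2.7, 0.712 and 1.03 CPM in the 4T1 tumors. Cdh2 had a log2 fold change of 4.23 (SE 0.33, adjusted p = 6.65e-08). Snai2, which encodes Slug, was at 15.9, 8.29, 17.8, 13.5 and 15.5 CPM in the CT26 tumors and 2.37, 0.856, 2.52, 3.2 and 4.91 CPM in the 4T1 tumors. Snai2 had a log2 fold change of 2.35 (SE 0.32, adjusted p = 2.56e-05). All CT26 tumors were above all 4T1 tumors for both. Prrx1, a mesenchymal homeobox gene (131 ± 8.97 against 29.6 ± 2.43 CPM, log2 fold change 2.15), S100a4, a calcium-binding protein of motile cells (1054 ± 114 against 377 ± 54.9 CPM, log2 fold change 1.48), Zeb1 (log2 fold change 0.95), Zeb2 (0.94), Twist1 (1.11) and Twist2 (1.40) were higher in CT26 with no overlap.

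Other mesenchymal genes were higher in 4T1. Fn1, which encodes fibronectin, was at 414, 424, 475, 478 and 542 CPM in the CT26 tumors and 1419, 1542, 1626, 1356 and 1345 CPM in the 4T1 tumors. Fn1 had a log2 fold change of -1.64 (SE 0.16, adjusted p = 6.11e-07). Cdh11, the mesenchymal cadherin-11, was at 6.66, 16.6, 7.01, 9.5 and 3.59 CPM in the CT26 tumors and 25.1, 35.1, 30.6, 28.2 and 39.3 CPM in the 4T1 tumors (log2 fold change -1.96, SE 0.28, adjusted p = 4.75e-05), each with no overlap. Itgav, the integrin αV subunit, was also higher in 4T1 (28.5 ± 1.34 against 58.5 ± 4.05 CPM, log2 fold change -1.03). Snai1, which encodes Snail, was called higher in 4T1 (log2 fold change -1.07, SE 0.31, adjusted p = 0.0116), but the groups overlapped and the call was lost in the shared pools (adjusted p = 0.125). Vim, which encodes the intermediate filament vimentin, was abundant in both, at 3488 ± 409 CPM in CT26 and 2766 ± 259 CPM in 4T1 (SD, n = 5 tumors each), and the test did not call it (adjusted p = 0.139). Fibroblasts and leukocytes of the host also express many of these genes, and their share in each value was not tested.

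Markers of the tissues of origin followed the labels in part. Of the 12 mammary lineage genes tested (of 28 in the list), 7 were higher in 4T1 and 3 in CT26 (2 and 7 in the shared pools). Gata3, a transcription factor of luminal mammary cells, was at 4.12, 8.29, 4.05, 3.17 and 1.43 CPM in the CT26 tumors and 71.1, 99, 58.6, 82 and 63.1 CPM in the 4T1 tumors. Gata3 had a log2 fold change of -4.25 (SE 0.28, adjusted p = 1.42e-08). Krt14, a keratin of basal mammary cells, was at 0.392, 0, 1.35, 0.864 and 0.478 CPM in the CT26 tumors and 60.3, 53.3, 39.5, 36.9 and 62.3 CPM in the 4T1 tumors. Krt14 had a log2 fold change of -6.02 (SE 0.33, adjusted p = 1.83e-09). Tfap2a, the transcription factor AP-2α (-2.67), and Lcn2, the siderophore-binding lipocalin-2 (-1.84), were also higher in 4T1 by these log2 fold changes. The other direction was taken by Csn3, which encodes κ-casein (9.28 ± 7.93 against 1.89 ± 0.591 CPM, log2 fold change 2.23), Foxa1, a pioneer factor of luminal cells (5.17 ± 2.1 against 0.461 ± 0.647 CPM, log2 fold change 3.34), and Esr1, estrogen receptor α (15 ± 1.63 against 7.21 ± 2.43 CPM, log2 fold change 1.01). The call on Csn3 was lost in the shared pools (adjusted p = 0.0541).

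Few intestinal lineage genes were detected in either tumor. Of the 31 intestinal lineage genes, 4 could be tested, 2 of them higher in CT26 and 2 in 4T1 (1 and 1 in the shared pools). For 2 of the 4 no CT26 tumor reached the level of the filter on low counts, so these passed through the 4T1 tumors alone. Cdx1 and Hnf4a, transcription factors of intestinal cells, had no count in any of the 10 tumors, Cdx2 had 1 count and Vil1, which encodes villin, had 2. Krt20, a keratin of intestinal epithelium, was nevertheless at 78, 116, 65.8, 111 and 153 CPM in the CT26 tumors and 2.71, 1.43, 1.26, 0.712 and 0.517 CPM in the 4T1 tumors. Krt20 had a log2 fold change of 6.43 (SE 0.34, adjusted p = 1.37e-09), with all CT26 tumors above all 4T1 tumors. Gpa33, the intestinal glycoprotein A33, ran against the labels at 0, 0, 0.27, 0 and 0.717 CPM in the CT26 tumors and 34.5, 30.2, 27.8, 31.6 and 28.7 CPM in the 4T1 tumors. Gpa33 had a log2 fold change of -6.93 (SE 0.38, adjusted p = 1.7e-09). Smoc2, a secreted calcium-binding protein, was also higher in 4T1 (-2.01) but was not called in the shared pools (adjusted p = 0.0556).

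The genes with the largest fold changes were silent or nearly silent in one of the lines. Among those higher in CT26, Rhox5, an X-linked homeobox gene of the reproductive system (chromosome X, 37804842 to 37808876, plus strand), was at 326, 264, 374, 536 and 657 CPM in the CT26 tumors and 9.48, 3.99, 1.26, 1.19 and 3.1 CPM in the 4T1 tumors. Rhox5 had a log2 fold change of 7.03 (SE 0.48, adjusted p = 1.76e-08). Slurp1, a secreted Ly6-family protein, was at 120.4, 84.9, 88.1, 172 and 123 CPM in the CT26 tumors and 1.69, 1.71, 0, 0 and 0 CPM in the 4T1 tumors. Slurp1 had a log2 fold change of 7.89 (SE 0.51, adjusted p = 1.03e-08). Neither gene showed any overlap between the lines. The others were the unnamed loci 3110039M20Rik (8.36), Gm35618 (8.27), 1700012B09Rik (7.52) and 3830403N18Rik (7.06), the heparan sulfate sulfotransferase gene Ndst4 (6.88) and the cadherin-like gene Cdh26 (6.72), each with its log2 fold change. These folds were smaller in the shared pools, at 6.08 for Slurp1, 6.01 for Rhox5, 6.65 for 3110039M20Rik, 7.51 for Gm35618, 6.31 for 1700012B09Rik, 6.6 for 3830403N18Rik, 5.47 for Ndst4 and 4.97 for Cdh26, and all 8 genes were called there. Both 4T1 tumors of these pools were at 1.69 and 1.71 CPM for Slurp1, and the 3 others were at 0.

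Among those higher in 4T1, Fam167a (chromosome 14, 63436394 to 63465498, plus strand) had no count in any CT26 tumor and was at 27.1, 24.5, 24.3, 29.9 and 29.5 CPM in the 4T1 tumors, at least 200.5-fold higher. Msmp, a secreted microseminoprotein, likewise had no count in CT26 and was at 21, 13.1, 39.1, 12.5 and 32.6 CPM in 4T1, at least 175-fold higher. The 4T1 tumors spread over a wider range for Msmp than for Fam167a. Fgfbp1, a carrier of fibroblast growth factors (0.102 ± 0.14 against 43.5 ± 13.9 CPM, log2 fold change -8.08), Tmprss11e, a membrane serine protease (0.269 ± 0.135 against 61.6 ± 4.74 CPM, log2 fold change -7.93), and Hhip, an inhibitor of hedgehog ligands (0.239 ± 0.175 against 59.3 ± 10.1 CPM, log2 fold change -7.88), were almost absent from CT26. So were Ibsp, bone sialoprotein (0.141 ± 0.131 against 44 ± 12.4 CPM, log2 fold change -7.74), Cxadr, a tight-junction receptor for adenovirus (0.114 ± 0.11 against 31.8 ± 6.32 CPM, log2 fold change -7.63), and Cdcp1, a membrane substrate of Src kinases (0.269 ± 0.135 against 43.5 ± 8.95 CPM, log2 fold change -7.43).

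Activity of the RAS-MAPK pathway is often read from its ligands and feedback inhibitors. Of the 25 pathway genes tested (of 29 in the list), 6 were higher in CT26, 9 were higher in 4T1 and 10 were not called (5 and 9 in the shared pools; median log2 fold change -0.32). In shares, 24.0% were higher in CT26 and 36.0% in 4T1, against 21.3% and 21.1% of all genes tested, so the CT26 share was near the background. The ligands split. Ereg, which encodes epiregulin, was at 37.4, 28.3, 35.2, 47.5 and 38.5 CPM in the CT26 tumors and 0.677, 0.856, 0.721, 0.119 and 0 CPM in the 4T1 tumors. Ereg had a log2 fold change of 6.40 (SE 0.36, adjusted p = 2.18e-09). Areg, which encodes amphiregulin, was at 4.12, 7.32, 6.2, 2.88 and 6.46 CPM in the CT26 tumors and 31.8, 43.4, 26.7, 21.6 and 26.4 CPM in the 4T1 tumors. Areg had a log2 fold change of -2.47 (SE 0.25, adjusted p = 1.46e-06). Tgfa, transforming growth factor α, was also higher in 4T1 (3.78 ± 1.87 against 65.9 ± 10.6 CPM, log2 fold change -3.99). None of these ligands overlapped between the lines.

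The feedback inhibitors split too. Spry4, a Sprouty inhibitor of receptor signaling, was higher in CT26 (9.7 ± 2.21 against 1.8 ± 1.04 CPM, log2 fold change 2.36), while Spry1, of the same family (0.892 ± 0.613 against 14.5 ± 2.45 CPM, log2 fold change -4.04), and Dusp6, the phosphatase of ERK (88.2 ± 14.1 against 201 ± 7.73 CPM, log2 fold change -1.19), were higher in 4T1. Among the output genes, Fosl1, the AP-1 subunit Fra-1 (19.8 ± 9.29 against 1.19 ± 2.23 CPM, log2 fold change 4.15), and Il1rl1, the receptor of interleukin-33 (112 ± 27.8 against 5.23 ± 1.5 CPM, log2 fold change 4.39), were higher in CT26, and Il1rl1 is also expressed by mast cells and lymphocytes. The AP-1 motif TGACTCA was found in 0 of 21 promoters of this list, which covered 18 of 29 members, and in 5.2% of all promoters, on either strand.

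The list of the p53 pathway held 32 genes, of which 28 were tested. Of these, 10 were higher in CT26, 6 were higher in 4T1 and 12 were not called (median log2 fold change 0.24). In the shared pools 8 were higher in CT26 and 4 in 4T1. The shares higher in CT26 and in 4T1 were 35.7% and 21.4%, against 21.3% and 21.1% of all genes tested. Trp53, which encodes p53, was at 41.8, 21.5, 38.2, 29.4 and 40.6 CPM in the CT26 tumors and 11.5, 16, 17.1, 15.7 and 10.6 CPM in the 4T1 tumors. Trp53 had a log2 fold change of 1.28 (SE 0.20, adjusted p = 0.000111), with no overlap. Cdkn1a, the cell-cycle inhibitor p21 and a p53 target, was at 43.5, 57.1, 44.5, 49.8 and 55.2 CPM in the CT26 tumors and 12.2, 15.7, 15, 11.4 and 21.2 CPM in the 4T1 tumors. Cdkn1a had a log2 fold change of 1.73 (SE 0.18, adjusted p = 1.3e-06), also with no overlap. Plk2, a polo-like kinase (49 ± 7.32 against 20.6 ± 2.49 CPM, log2 fold change 1.24), and Btg2, an antiproliferative factor (27.1 ± 5.47 against 13.3 ± 2.03 CPM, log2 fold change 1.02), were p53 targets higher in CT26. Perp, given above among the epithelial genes, Ei24, an endoplasmic reticulum protein (18.6 ± 2.61 against 55.4 ± 6.77 CPM, log2 fold change -1.58), and Tnfrsf10b, the TRAIL death receptor (14.8 ± 4.11 against 35.4 ± 7.81 CPM, log2 fold change -1.23), were p53 targets higher in 4T1.

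At the Cdkn2a locus, the cell-cycle inhibitor gene Cdkn2a had no count in any tumor of either line, and Cdkn2b had 6 counts over the CT26 tumors and 12 over the 4T1 tumors. Dmrta1, the neighbor on the other side, was also without counts. Mtap, the adjacent gene for methylthioadenosine phosphorylase, was expressed in both and was at 130.2, 94.2, 141, 137 and 135 CPM in the CT26 tumors and 476, 499, 498, 475 and 407 CPM in the 4T1 tumors. Mtap had a log2 fold change of -1.88 (SE 0.15, adjusted p = 1.02e-07), with no overlap. These counts do not read DNA, and no copy number was measured.

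Among oncogenes and tumor suppressors, 35 of the 38 were tested, and 8 were higher in CT26 (22.9%), 5 were higher in 4T1 (14.3%) and 22 were not called. These shares are near those of all genes tested (21.3% and 21.1%), and the balance turned in the shared pools (3 and 5) and with pool as a covariate (4 and 7). The cyclin genes Ccnd2, Ccne1 and Ccnd3 were higher in CT26. Ccnd2 was at 146, 158, 160.1, 137 and 123 CPM in the CT26 tumors and 37.6, 40.8, 57.3, 42 and 41.1 CPM in the 4T1 tumors. Ccnd2 had a log2 fold change of 1.72 (SE 0.14, adjusted p = 1.63e-07). Ccne1 (30.2 ± 4.48 against 11.3 ± 4.04 CPM, log2 fold change 1.45) and Ccnd3 (52.2 ± 11.6 against 28.3 ± 1.6 CPM, log2 fold change 0.87) followed without overlap. The Hippo kinase gene Lats1 (14.4 ± 3.48 against 38.5 ± 3.63 CPM, log2 fold change -1.43) and Pik3ca, the catalytic subunit of phosphoinositide 3-kinase (34.2 ± 4.9 against 57.8 ± 11.9 CPM, log2 fold change -0.75), were higher in 4T1.

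Of the 12 genes of the WNT list tested (of 23), 7 were higher in 4T1 and 1 was higher in CT26 (1 and 5 in the shared pools). In shares this was 58.3% and 8.33%, against 21.1% and 21.3% of all genes tested. For 2 of the 12 no CT26 tumor reached the level of the filter on low counts, so these passed through the 4T1 tumors alone. The ligands Wnt7b (0.209 ± 0.209 against 12 ± 3.28 CPM, log2 fold change -5.87) and Wnt5a (1.82 ± 0.746 against 20.6 ± 3.48 CPM, log2 fold change -3.58) were higher in 4T1, as was Sox9, a transcription factor of epithelial progenitors (14.8 ± 3.21 against 51 ± 8.12 CPM, log2 fold change -1.82). The 1 exception was the ligand Wnt10a, at 27.8, 24.9, 27.9, 33.7 and 23.9 CPM in the CT26 tumors and 3.39, 2.28, 1.8, 1.9 and 0.517 CPM in the 4T1 tumors. Wnt10a had a log2 fold change of 3.84 (SE 0.27, adjusted p = 2.68e-08). Of the 21 genes of the TGF-β, BMP and YAP list tested (of 23), 14 were higher in 4T1 and 2 in CT26 (2 and 13 in the shared pools; median log2 fold change -1.18, and -0.85 there). These were 66.7% and 9.52% of the genes tested, and for 2 of the 21 no CT26 tumor reached the level of the filter. The ligand Bmp7 was at 0.196, 0, 0.135, 0.576 and 0.478 CPM in the CT26 tumors and 9.82, 15.1, 17.1, 8.42 and 8.01 CPM in the 4T1 tumors. Bmp7 had a log2 fold change of -5.29 (SE 0.46, adjusted p = 2.18e-07). Bmp1, a procollagen protease (17.2 ± 4.06 against 114 ± 20.2 CPM, log2 fold change -2.72), the ligand Tgfb3 (8.44 ± 4.37 against 37.1 ± 5.56 CPM, log2 fold change -2.08) and Id3, an inhibitor of helix-loop-helix factors induced by BMP (4.47 ± 2.42 against 31.3 ± 2.44 CPM, log2 fold change -2.84), were higher in 4T1. The 2 exceptions were the ligand Bmp2 (15.9 ± 1.87 against 2.66 ± 0.72 CPM, log2 fold change 2.57) and Id2, of the same family as Id3 (log2 fold change 1.03).

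Lymphocyte genes were higher in CT26 tumors. Ptprc, which encodes the pan-leukocyte antigen CD45, was at 187, 264, 150.2, 119 and 75.1 CPM in the CT26 tumors and 53.5, 53.9, 51.2, 60.5 and 51.7 CPM in the 4T1 tumors. Ptprc had a log2 fold change of 1.54 (SE 0.25, adjusted p = 0.00015). The CT26 tumors spread widely and replicate 5 came closest to the 4T1 range, without entering it. Of the 21 T cell genes tested (of 26 in the list), 18 were higher in CT26 and none was higher in 4T1 (16 and 0 in the shared pools; median log2 fold change 2.12, and 1.97 there). Cd3d, a chain of the T cell receptor complex, was at 26.1, 38.5, 15.2, 31.7 and 18.4 CPM in the CT26 tumors and 5.42, 2.85, 5.23, 3.68 and 4.65 CPM in the 4T1 tumors. Cd3d had a log2 fold change of 2.55 (SE 0.28, adjusted p = 2.87e-06). Cd8a, a chain of the CD8 coreceptor, was at 6.66, 10.2, 7.28, 10.4 and 5.98 CPM in the CT26 tumors and 0.677, 2.28, 1.26, 0.119 and 0.517 CPM in the 4T1 tumors. Cd8a had a log2 fold change of 3.14 (SE 0.48, adjusted p = 7.97e-05). Trbc2, a constant region of the T cell receptor β chain, was at 56.3 ± 12.8 CPM in CT26 and 8.68 ± 1.58 CPM in 4T1 (SD, n = 5 tumors each, log2 fold change 2.67). All CT26 tumors were above all 4T1 tumors for these genes.

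Of the cytotoxic and NK cell genes, 16 of the 17 tested (of 22 in the list) were higher in CT26 (18 and 0 in the shared pools; median log2 fold change 3.70). The 11 effector genes tested were all called in that direction (median log2 fold change 4.07), as were the 5 NK receptor genes tested (3.44). Gzma, which encodes granzyme A (chromosome 13, 113093825 to 113100981, minus strand), was at 372, 306, 387, 588 and 449 CPM in the CT26 tumors and 8.13, 9.98, 5.41, 8.31 and 11.4 CPM in the 4T1 tumors. Gzma had a log2 fold change of 5.62 (SE 0.25, adjusted p = 2.23e-10). Prf1, which encodes the pore-forming protein perforin, was at 58.6, 56.6, 46, 60.5 and 32.8 CPM in the CT26 tumors and 2.37, 0.57, 0.901, 1.78 and 0.775 CPM in the 4T1 tumors. Prf1 had a log2 fold change of 5.26 (SE 0.29, adjusted p = 2.16e-09). Nkg7, a granule protein of cytotoxic cells, was at 172, 237, 171, 240.5 and 184 CPM in the CT26 tumors and 7.45, 7.7, 6.85, 9.73 and 8.53 CPM in the 4T1 tumors. Nkg7 had a log2 fold change of 4.62 (SE 0.18, adjusted p = 8.18e-11). For each, the lowest CT26 tumor was well above the highest 4T1 tumor. Gzmf, which encodes granzyme F, was far more uneven, at 19.4, 2.44, 11.7, 60.8 and 54.5 CPM in the CT26 tumors and 0.677, 0, 1.62, 0 and 0 CPM in the 4T1 tumors. Gzmf had a log2 fold change of 5.95 (SE 0.89, adjusted p = 6.95e-05), with replicate 2 of CT26 closest to the 4T1 tumors. The summed level of the 22 genes was 1283 to 1963 CPM (median 1493) in the CT26 tumors and 88.2 to 101 CPM (median 93.8) in the 4T1 tumors. For 4 of the 17 genes no 4T1 tumor reached the level of the filter on low counts.

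**Figure D3:**
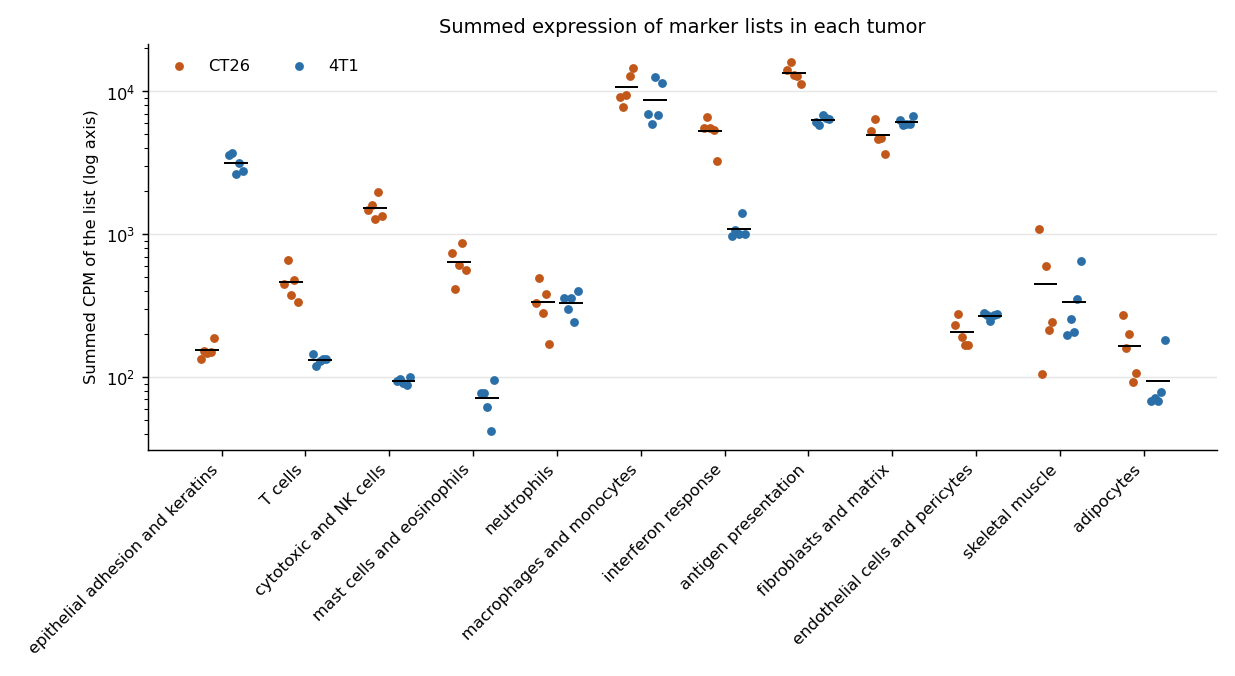
Summed CPM of the members of selected gene lists in each of the 10 tumors, on a log axis, with CT26 and 4T1 tumors as separate points and the group mean as a bar. The cytotoxic and NK cell list spans 1283 to 1963 CPM in CT26 and 88.2 to 101 CPM in 4T1, whereas the neutrophil list spans 172 to 498 and 243 to 399.8 CPM and overlaps.

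B cell and mast cell genes were also higher in CT26 where they could be tested, which was 4 of 11 B and plasma cell genes and 4 of 13 mast cell and eosinophil genes, all of them called. In the shared pools 2 B and plasma cell genes and 4 mast cell genes were called. For 1 of the 4 B and plasma cell genes no 4T1 tumor reached the level of the filter on low counts. Igkc, the immunoglobulin κ constant region, was at 19.6, 27.8, 21.8, 20.2 and 13.6 CPM in the CT26 tumors and 0.339, 0.285, 4.69, 2.73 and 1.29 CPM in the 4T1 tumors. Igkc had a log2 fold change of 3.23 (SE 0.42, adjusted p = 1.62e-05), with no overlap. Ighm, the μ heavy chain, overlapped between the lines (log2 fold change 0.76, SE 0.26, adjusted p = 0.0301), and its call was lost without any one of CT26 replicates 1 or 3 or 4T1 replicates 1, 2 or 4 (adjusted p 0.0589 to 0.0816). The B cell gene Cd79a had no count in any of the 10 tumors. Cma1, a mast cell chymase, was at 618, 306, 523, 753 and 499 CPM in the CT26 tumors and 56.9, 62.5, 48.3, 30.4 and 72.6 CPM in the 4T1 tumors. Cma1 had a log2 fold change of 3.33 (SE 0.27, adjusted p = 1.05e-07). Cpa3, mast cell carboxypeptidase A (62.6 ± 16.8 against 5.75 ± 1.54 CPM, log2 fold change 3.44), and Fcer1a, the high-affinity IgE receptor chain (16.6 ± 3.21 against 2.48 ± 1.37 CPM, log2 fold change 2.75), followed the same direction without overlap. The eosinophil peroxidase gene Epx had no count in any tumor.

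Neutrophil genes did not move in a common direction. Of the 17 tested (of 23 in the list), 8 were higher in CT26, 4 were higher in 4T1 and 5 were not called, with a median log2 fold change of 0.00. The 4 fell to 2 in the shared pools, where 6 were higher in CT26. The 4 also fell to 2 without CT26 replicate 1 or without 4T1 replicates 3 or 5. Of 8 receptor genes tested, 5 were higher in CT26 and 2 in 4T1. Of 4 inducible genes, 3 were higher in CT26 and none in 4T1. Of 5 granule and calcium-binding genes, none was higher in CT26 and 2 were higher in 4T1. Lcn2, given above in the mammary list, is a member of this list too. S100a8, an abundant calgranulin of neutrophils, was at 6.47, 5.37, 6.61, 13.5 and 4.06 CPM in the CT26 tumors and 13.5, 6.28, 15.1, 4.03 and 14.5 CPM in the 4T1 tumors, with overlapping groups and no call (log2 fold change -0.55, SE 0.39, adjusted p = 0.271). Mmp9, gelatinase B, was at 6.66, 17.1, 10.1, 18.1 and 11.2 CPM in the CT26 tumors and 138, 107, 89.2, 92.2 and 133 CPM in the 4T1 tumors (log2 fold change -3.2, SE 0.24, adjusted p = 5.02e-08), and all 4T1 tumors were above all CT26 tumors. Acod1, which makes itaconate in activated myeloid cells, was at 50.8, 88.3, 48, 43.2 and 12.2 CPM in the CT26 tumors and 2.37, 0.856, 2.52, 2.37 and 2.33 CPM in the 4T1 tumors. Acod1 had a log2 fold change of 4.45 (SE 0.44, adjusted p = 1.1e-06), with all CT26 tumors above. Fpr2, a formyl peptide receptor (27 ± 14.1 against 2.89 ± 0.916 CPM, log2 fold change 3.14), and Clec4e, the receptor Mincle (16.1 ± 8.99 against 2.91 ± 1.84 CPM, log2 fold change 2.48, with overlap), were higher in CT26. Csf3, the granulocyte growth factor G-CSF for which 4T1 is known, had 2 counts over the CT26 tumors and 36 over the 4T1 tumors and was not tested.

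Of the 28 macrophage and monocyte genes tested (of 31 in the list), 11 were higher in CT26, 2 were higher in 4T1 and 15 were not called (12 and 0 in the shared pools; median log2 fold change 0.46). The monocyte surface gene Ly6c2 was at 221, 269, 163, 118 and 79.6 CPM in the CT26 tumors and 18.3, 7.7, 11.5, 12.8 and 16 CPM in the 4T1 tumors. Ly6c2 had a log2 fold change of 3.68 (SE 0.32, adjusted p = 2.18e-07). Plac8, a cysteine-rich protein of inflammatory monocytes, was at 455, 521, 395, 505 and 499 CPM in the CT26 tumors and 34.5, 24.2, 29.4, 34.1 and 47.6 CPM in the 4T1 tumors (log2 fold change 3.81, SE 0.19, adjusted p = 8.59e-10), each without overlap. Gpnmb, a glycoprotein of lipid-laden macrophages, was also higher in CT26 (9.86 ± 2.27 against 3.13 ± 0.777 CPM, log2 fold change 1.69). Adgre1, the macrophage antigen F4/80, differed less (51.1 ± 16.2 against 28.2 ± 4.03 CPM, log2 fold change 0.85), overlapped and was not called in the shared pools (adjusted p = 0.085). Apoe, apolipoprotein E (169.96 ± 20.2 against 331 ± 93.6 CPM, log2 fold change -0.96), and Fabp5, a fatty acid-binding protein (85.8 ± 47.7 against 182 ± 18.3 CPM, log2 fold change -1.10), were higher in 4T1, and neither was called in the shared pools (adjusted p = 0.0858 and 0.0551).

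Of the 14 dendritic cell genes tested (of 15 in the list), 4 were higher in 4T1 and 3 in CT26. In the shared pools 1 was higher in CT26 and 2 were higher in 4T1. The shares higher in CT26 and in 4T1, 21.4% and 28.6%, lay near those of all genes tested (21.3% and 21.1%). Ccl17, a chemokine of dendritic cells that attracts CCR4-bearing T cells, was at 2.16, 2.93, 2.97, 5.47 and 3.59 CPM in the CT26 tumors and 13.2, 14.8, 16.6, 12.2 and 25.3 CPM in the 4T1 tumors. Ccl17 had a log2 fold change of -2.28 (SE 0.28, adjusted p = 1.08e-05), with no overlap. Itgax, which encodes CD11c, was higher in 4T1 (5.86 ± 4.01 against 12.6 ± 1.68 CPM, log2 fold change -1.18) and Irf8, a transcription factor of conventional dendritic cells, was higher in CT26 (68.4 ± 34.2 against 30.9 ± 5.87 CPM, log2 fold change 1.12), both with overlap and neither called in the shared pools (adjusted p = 0.176 and 0.0932).

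Interferon-induced genes were higher in CT26 as a group, with 27 of 29 called in that direction and none in the other (26 and 0 in the shared pools; median log2 fold change 1.94, and 2.15 there). Cxcl9, the interferon-γ-induced ligand of CXCR3, was at 381, 769, 266, 216 and 126 CPM in the CT26 tumors and 12.5, 20.5, 15.1, 22.9 and 10.1 CPM in the 4T1 tumors. Cxcl9 had a log2 fold change of 4.41 (SE 0.43, adjusted p = 9.03e-07). Gbp2, a guanylate-binding protein, was at 836, 943, 904, 867 and 416 CPM in the CT26 tumors and 104, 100.1, 84.7, 99.2 and 52.7 CPM in the 4T1 tumors. Gbp2 had a log2 fold change of 3.17 (SE 0.25, adjusted p = 8.78e-08). Iigp1, an immunity-related GTPase, was at 490.3, 547, 449.7, 475 and 249.6 CPM in the CT26 tumors and 23.4, 37.7, 42.7, 61.7 and 30.5 CPM in the 4T1 tumors. Iigp1 had a log2 fold change of 3.48 (SE 0.27, adjusted p = 7.18e-08). All CT26 tumors were above all 4T1 tumors for these genes, but replicate 5 of CT26 was the lowest of its group in each. The leukocyte gene Ptprc was lowest in the same tumor. Cd274, which encodes the checkpoint ligand PD-L1, was at 82.7, 133, 62, 73.7 and 23.7 CPM in the CT26 tumors and 9.82, 5.99, 8.83, 11 and 8.01 CPM in the 4T1 tumors. Cd274 had a log2 fold change of 3.06 (SE 0.35, adjusted p = 4.62e-06), again without overlap. The T cell and cytotoxic genes above were also higher in CT26 as groups, and their part in the level of the interferon list was not tested.

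The interferon-response motif, searched as TTTC followed by any 2 bases and another TTTC, was added after the values were seen. It was found on either strand in 14 of 24 promoters of the interferon list (58.3%, covering 21 of 29 members) and in 3.44% of all promoters. The list was made of genes known to be induced by interferon, so this share says nothing of a difference between the lines. Binding was not measured. For each gene shown, the first RefSeq promoter that holds the motif was taken. The 250 bases before the start are shown for Gbp2 (chr3:142620413-142620662, plus strand) and for Gbp5, another guanylate-binding protein (chr3:142496684-142496933, plus strand, 24.7 ± 14.2 against 2.54 ± 1.31 CPM, log2 fold change 3.2), with the match in capitals.
Gbp2: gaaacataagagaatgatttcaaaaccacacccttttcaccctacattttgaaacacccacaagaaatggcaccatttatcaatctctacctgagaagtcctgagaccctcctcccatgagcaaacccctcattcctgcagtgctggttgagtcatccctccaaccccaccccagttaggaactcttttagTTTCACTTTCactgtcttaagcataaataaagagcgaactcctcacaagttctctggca
Gbp5: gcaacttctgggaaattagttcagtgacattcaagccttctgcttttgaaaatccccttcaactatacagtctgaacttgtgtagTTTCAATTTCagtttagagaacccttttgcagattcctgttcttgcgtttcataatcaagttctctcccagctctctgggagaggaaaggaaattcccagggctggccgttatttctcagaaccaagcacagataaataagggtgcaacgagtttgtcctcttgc

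Antigen presentation genes were higher in CT26, with 17 of 20 tested members called and none higher in 4T1 (16 and 0 in the shared pools; median log2 fold change 1.06). B2m, the light chain of class I molecules, was at 3421, 3306, 3329, 4209 and 4413 CPM in the CT26 tumors and 1160.03, 994, 1695, 1230.3 and 1633 CPM in the 4T1 tumors. B2m had a log2 fold change of 1.48 (SE 0.21, adjusted p = 3.41e-05). Tap1, a subunit of the peptide transporter, was at 255, 331, 251, 186 and 126 CPM in the CT26 tumors and 59.3, 72.7, 48.1, 73.5 and 36.4 CPM in the 4T1 tumors. Tap1 had a log2 fold change of 1.98 (SE 0.25, adjusted p = 1.3e-05). Tap2, its partner (36.9 ± 11.1 against 10.2 ± 1.81 CPM, log2 fold change 1.83), and Psmb9, a subunit of the immunoproteasome (336 ± 26.4 against 102 ± 8.9 CPM, log2 fold change 1.72), were higher as well. None of these overlapped between the lines. H2-Ab1, a class II chain of professional antigen-presenting cells, was at 381, 733, 233, 165 and 93.2 CPM in the CT26 tumors and 113, 115, 93.6, 150.1 and 77.5 CPM in the 4T1 tumors, and CT26 replicate 5 lay inside the 4T1 range (log2 fold change 1.54, SE 0.41, adjusted p = 0.00725). It was not called in the shared pools (adjusted p = 0.111). Counts of H2 genes are less certain than others, since the reference genome carries other alleles than Balb/c mice and the genes resemble each other.

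Of the 23 chemokine and colony-stimulating factor genes tested (of 29 in the list), 11 were higher in CT26, 4 were higher in 4T1 and 8 were not called (9 and 1 in the shared pools). The monocyte attractants were abundant in both and higher in CT26. Ccl8 was at 7624, 10852, 6089, 9178 and 5677 CPM in the CT26 tumors and 1937, 1258, 1033, 1435 and 1912 CPM in the 4T1 tumors. Ccl8 had a log2 fold change of 2.38 (SE 0.26, adjusted p = 3.06e-06). Ccl2 was at 1314, 1035, 1337, 1980.2 and 1503 CPM in the CT26 tumors and 324, 213, 349, 172 and 427 CPM in the 4T1 tumors. Ccl2 had a log2 fold change of 2.27 (SE 0.26, adjusted p = 4.26e-06). The lowest CT26 tumor exceeded the highest 4T1 tumor for each. Ccl4, an attractant of T cells and monocytes (79.8 ± 53.3 against 10.7 ± 5.31 CPM, log2 fold change 2.87), and Il33, the ligand of the receptor encoded by Il1rl1 (47.2 ± 19.1 against 10.7 ± 5.82 CPM, log2 fold change 2.11), were also higher in CT26. Tslp, an epithelial cytokine, ran the other way at 0.588, 0.488, 1.48, 0.288 and 2.15 CPM in the CT26 tumors and 45, 39.6, 83.5, 42.6 and 98.7 CPM in the 4T1 tumors. Tslp had a log2 fold change of -5.77 (SE 0.41, adjusted p = 2.63e-08), with all 4T1 tumors above. Lif, leukemia inhibitory factor, was higher in 4T1 (4.7 ± 1.73 against 11.3 ± 4.07 CPM, log2 fold change -1.22) and was not called in the shared pools (adjusted p = 0.0619).

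Of the 35 fibroblast and matrix genes tested (of 39 in the list), 24 were higher in 4T1 and 2 in CT26 (2 and 20 in the shared pools; median log2 fold change -1.28, and -1.25 there). The collagen, proteoglycan and contractile genes made up 22 of the 24, while of 6 fibroblast surface genes 2 were higher in 4T1, 1 was higher in CT26 and 3 were not called (median log2 fold change -0.15). The summed level of the list overlapped, at 3622 to 6445 CPM in the CT26 tumors and 5872 to 6690.2 CPM in the 4T1 tumors. Postn, which encodes periostin, was at 24.7, 39, 26, 14.7 and 18.6 CPM in the CT26 tumors and 325, 363, 293, 352 and 354 CPM in the 4T1 tumors. Postn had a log2 fold change of -3.80 (SE 0.22, adjusted p = 3.52e-09). Col1a1, the main chain of type I collagen, was at 81.7, 161, 63.2, 65.7 and 37.3 CPM in the CT26 tumors and 223, 214, 196, 213 and 196 CPM in the 4T1 tumors. Col1a1 had a log2 fold change of -1.37 (SE 0.28, adjusted p = 0.00103). Neither overlapped, although CT26 replicate 2 came close to the 4T1 tumors for Col1a1. Col7a1, collagen of epithelial anchoring fibrils (0.234 ± 0.225 against 13.6 ± 1.89 CPM, log2 fold change -6.02), Mfap4, a microfibril protein (0.581 ± 0.422 against 14.5 ± 3.51 CPM, log2 fold change -4.41), and Tagln, the smooth muscle protein transgelin (2.32 ± 0.794 against 26.8 ± 8.59 CPM, log2 fold change -3.44), were higher in 4T1. The 2 exceptions were Dcn, the proteoglycan decorin (343 ± 57.6 against 148 ± 32.4 CPM, log2 fold change 1.22), and Ly6a, the surface antigen Sca-1, which was at 1786, 1932, 1801, 1894 and 1235 CPM in the CT26 tumors and 201, 171, 171, 151 and 192 CPM in the 4T1 tumors. Ly6a had a log2 fold change of 3.29 (SE 0.18, adjusted p = 2.46e-09). Ly6a is also induced by interferon and expressed by T cells, and its cell of origin was not tested.

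Matrix-degrading enzymes and their inhibitors divided. Of the 18 tested (of 20 in the list), 10 were higher in 4T1 and 5 in CT26 (4 and 9 in the shared pools). The stromelysins were higher in 4T1. Mmp3 was at 30.8, 18.1, 39.5, 57 and 69.1 CPM in the CT26 tumors and 186, 169, 293, 152 and 333 CPM in the 4T1 tumors. Mmp3 had a log2 fold change of -2.39 (SE 0.31, adjusted p = 1.96e-05). Mmp10 was at 2.35, 0.976, 1.35, 3.46 and 4.54 CPM in the CT26 tumors and 54.2, 55.6, 77.9, 41.4 and 88.7 CPM in the 4T1 tumors. Mmp10 had a log2 fold change of -4.63 (SE 0.32, adjusted p = 2.05e-08). The inhibitors Timp1 (746 ± 161 against 249.9 ± 58.5 CPM, log2 fold change 1.58) and Timp3 (58.2 ± 24.5 against 12.2 ± 5.03 CPM, log2 fold change 2.25) were higher in CT26. Serpinb5, the epithelial serpin maspin, was close to 0 in CT26 (0.0956 ± 0.214 against 13.6 ± 4.37 CPM, log2 fold change -6.85). Serpinb2, the plasminogen activator inhibitor PAI-2, was higher in CT26 (19.8 ± 15 against 3.15 ± 3.95 CPM, log2 fold change 2.80) with overlap, and was not called in the shared pools (adjusted p = 0.119). Of the 16 endothelial and pericyte genes tested (of 22 in the list), 5 were higher in 4T1 and none in CT26. The 4T1 share was 31.25%, against 21.1% of all genes tested. For 1 of the 16 no CT26 tumor reached the level of the filter on low counts. The 5 fell to 2 in the shared pools and without 4T1 replicate 5, and to 3 without CT26 replicates 4 or 5 or 4T1 replicates 3 or 4, and 1 gene was higher in CT26 without CT26 replicate 5. Pecam1, the endothelial adhesion molecule CD31, was at 60.8 ± 15.1 CPM in CT26 and 56.2 ± 5.54 CPM in 4T1 (SD, n = 5 tumors each) and was not called (adjusted p = 0.623), whereas Flt1, a receptor of vascular endothelial growth factor, was at 19, 23.4, 18.7, 15 and 17.7 CPM in the CT26 tumors and 38.9, 37.4, 31.4, 41.1 and 33.6 CPM in the 4T1 tumors. Flt1 had a log2 fold change of -0.97 (SE 0.15, adjusted p = 8.94e-05).

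Hypoxia and redox genes are of interest because the series tested catalase, which turns hydrogen peroxide into water and oxygen. Cat, the endogenous catalase gene (chromosome 2, 103453849 to 103485160, minus strand), was at 24.1, 23.9, 23.6, 19.3 and 24.1 CPM in the CT26 tumors and 38.9, 36.2, 37.9, 43.3 and 32.3 CPM in the 4T1 tumors. Cat had a log2 fold change of -0.71 (SE 0.13, adjusted p = 0.000537). All 4T1 tumors were above all CT26 tumors, and the difference in the shared pools was -0.72 (adjusted p = 0.0146). Of the 25 antioxidant genes tested (of 26 in the list), 7 were higher in CT26, 4 were higher in 4T1 and 14 were not called. The shares higher in CT26 and in 4T1, 28.0% and 16.0%, lay near those of all genes tested (21.3% and 21.1%). The 7 fell to 3 in the shared pools, where 3 were higher in 4T1, and to 4 without CT26 replicate 1 or without 4T1 replicates 2 or 4. Gstm1, a glutathione transferase, was at 34.7, 34.6, 33.7, 62.2 and 50.2 CPM in the CT26 tumors and 8.13, 7.13, 6.13, 2.49 and 6.2 CPM in the 4T1 tumors. Gstm1 had a log2 fold change of 2.91 (SE 0.28, adjusted p = 7.81e-07). Gclc, the catalytic subunit for glutathione synthesis, was higher in CT26 (19 ± 2.8 against 9.16 ± 0.744 CPM, log2 fold change 1.05) and Gpx7, a peroxidase of the endoplasmic reticulum, in 4T1 (7.08 ± 2.22 against 15.1 ± 3.86 CPM, log2 fold change -1.12).

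Of the 29 hypoxia and glycolysis genes tested (of 30 in the list), 16 were higher in CT26, 4 were higher in 4T1 and 9 were not called (11 and 4 in the shared pools; median log2 fold change 0.59). Pgk1, phosphoglycerate kinase, was at 1317, 1733, 1355, 1414 and 1378 CPM in the CT26 tumors and 706, 809, 749.7, 498 and 634 CPM in the 4T1 tumors. Pgk1 had a log2 fold change of 1.08 (SE 0.17, adjusted p = 0.000132). Eno2, an enolase, was at 29.2, 38.5, 24.8, 24.2 and 18.4 CPM in the CT26 tumors and 7.11, 2.85, 5.59, 3.56 and 2.58 CPM in the 4T1 tumors (log2 fold change 2.64, SE 0.28, adjusted p = 1.76e-06), each without overlap. Higd1a (694 ± 215 against 256 ± 84.1 CPM, log2 fold change 1.44), a mitochondrial protein induced by hypoxia, and Angptl4 (39.1 ± 4.71 against 14.9 ± 4.36 CPM, log2 fold change 1.43), a lipase inhibitor, were higher in CT26. Other genes induced by low oxygen were higher in 4T1. Egln3, an oxygen-sensing prolyl hydroxylase, was at 0.588, 0.976, 1.75, 3.17 and 0.478 CPM in the CT26 tumors and 30.1, 30.5, 28.7, 27.2 and 17.8 CPM in the 4T1 tumors. Egln3 had a log2 fold change of -4.24 (SE 0.34, adjusted p = 1.05e-07). Aldoc, an aldolase (4.86 ± 1.22 against 44.4 ± 8.17 CPM, log2 fold change -3.24), and Car9, a carbonic anhydrase (17.9 ± 9.39 against 45.3 ± 9.32 CPM, log2 fold change -1.41), shared its direction. Car9 overlapped through CT26 replicate 2.

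Proliferation genes differed little. Of 26 tested, 3 were higher in CT26, 4 were higher in 4T1, and none differed by 2-fold or more. In shares this was 11.5% and 15.4%, against 21.3% and 21.1% of all genes tested. Differences of 2-fold or more were called in 10.7% and 10.6% of all genes tested. In the shared pools none was higher in CT26 and 2 were higher in 4T1, and without CT26 replicate 2 there were 5 higher in CT26. Mki67, which encodes the proliferation antigen Ki-67, was at 143, 164, 156, 149 and 122 CPM in the CT26 tumors and 209, 264, 153, 217 and 174 CPM in the 4T1 tumors, with overlap (log2 fold change -0.47, SE 0.16, adjusted p = 0.0259). Top2a, topoisomerase IIα (307 ± 12 against 423 ± 49.998 CPM, log2 fold change -0.46), was higher in 4T1 and Ube2c, a mitotic ubiquitin enzyme (109 ± 7.7 against 73.3 ± 8.3 CPM, log2 fold change 0.57), in CT26. Neither Top2a nor Ube2c was called in the shared pools (adjusted p = 0.0975 and 0.0801). The call on Mki67 was lost without CT26 replicate 1 (adjusted p = 0.0562) and without 4T1 replicates 1, 2 or 4 (0.0507, 0.077 and 0.0508).

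The lines were compared a second time in tumors that had received CAT-ABP, a catalase fused to an alum-binding peptide, together with alum. These were 6 CT26 and 6 4T1 tumors, none shared with the alum comparison and all in the same 2 sequencing pools. Of 13016 genes tested, 5928 (45.5%) were called, 2840 (21.8%) higher in CT26 and 3088 (23.7%) higher in 4T1. Of the genes called higher in CT26 under alum, 2099 were called in the same direction here (77.0% of the alum calls and 73.9% of the CAT-ABP calls), and for 4T1 the number was 2251 (83.2% and 72.9%). No gene called in both had opposite signs. The treatment differs between the comparisons, and the lines, host strain and laboratory are common to both.

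The epithelial list kept its size, with a median log2 fold change of -4.89 in the CAT-ABP tumors against -4.81 under alum, and Epcam was at -7.53 against -7.37. The medians in the CAT-ABP tumors were 1.5 against 2.12 for T cells, 3.15 against 3.70 for cytotoxic and NK cells, 1.26 against 1.94 for interferon genes and 0.65 against 1.06 for antigen presentation. For macrophages and monocytes the median was 0.65 against 0.46, and for neutrophils it was 0.47 against 0.00. Gzma was at 4.38 against 5.62 and Ptprc at 0.76 against 1.54. The hypoxia list was at 0.16 against 0.59, and the fibroblast and matrix list at -1.19 against -1.28. Whether any of these pairs differed was not tested.

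**Figure D4:**
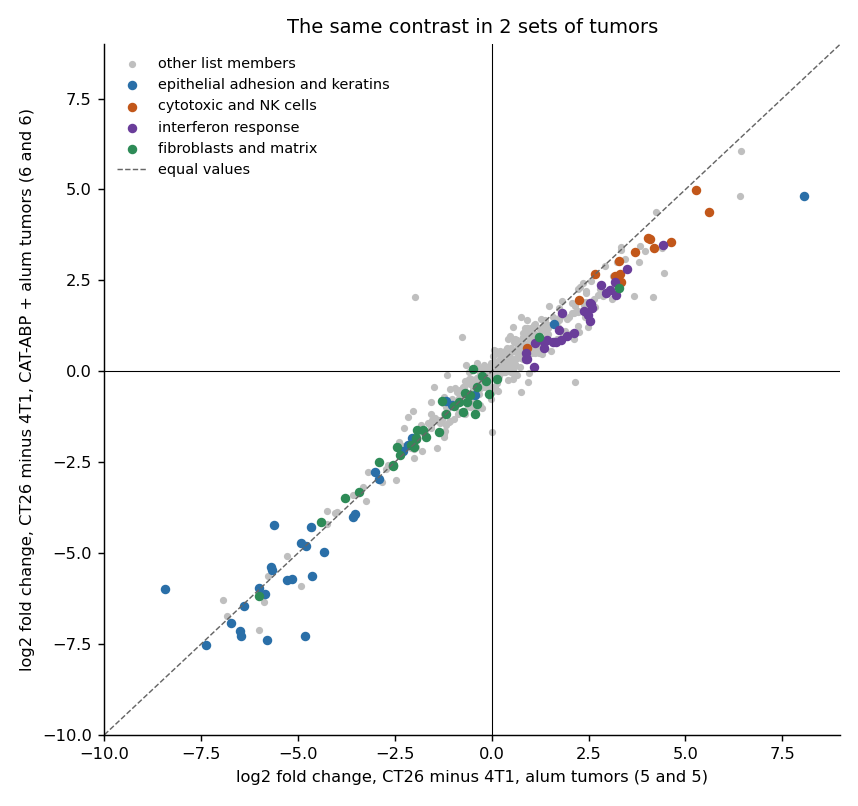
Log2 fold change of CT26 over 4T1 in the alum tumors (horizontal axis) and in the CAT-ABP plus alum tumors (vertical axis) for the 517 list genes tested in both, 1 point per gene and colors for 4 of the lists. The dashed line marks equal values, and epithelial genes lie at the far negative end of both axes (Epcam -7.37 and -7.53).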

How the data were processed

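RNA from whole tumors was turned into poly-A-selected, 3′-tagged libraries, 2 technical libraries per tumor, and sequenced by the authors. The deposited values are estimated counts per gene and library, which the authors made with a Smart-seq2 pipeline on the GENCODE M21 annotation of GRCm38. Among values above 0, 39.7% were fractional. The aligner and counter versions, the use of strand and any collapsing of molecular identifiers were not given in the sources used here. All 55536 gene identifiers matched GENCODE M21.

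Here each tumor's pair of libraries was added together and the sums were rounded, which made the tumor the replicate. Pearson correlations of log2 values between the libraries of a tumor were 0.899 to 0.968 over 12851 genes. Genes were kept with filterByExpr (10 counts), scaled by TMM and tested with edgeR 4.0.16 (quasi-likelihood F-test, R 4.3.3) between the 5 CT26 and 5 4T1 tumors, with Benjamini-Hochberg adjustment over the 12817 genes tested. No label says whether tumors of a group came from the same batch of mice, so p-values measure the spread between these tumors. The main design has no covariate. The study used DESeq2, which was run as an alternative (1.42.0), as were limma voom with quality weights (limma 3.58.1), other scalings, other filters, 1 model over all 7 groups, a replicate block, sequencing pool as a covariate, the tumors of the shared pools alone, each technical replicate alone, the removal of the 1 low-depth 4T1 library (440905 counts, against 440905 to 6551658 over the 4T1 libraries) and leaving out each tumor in turn. The scripts were tested on simulated data.

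The 32 gene lists (694 of 696 genes matched) and the genes described were chosen with earlier results of these data known, and the lists were counted and not tested. Genes named are the 8 per direction with the largest fold change among called genes of 10 CPM or more without overlap, up to 4 per direction and list among called genes of 5 CPM or more, and a short list named whatever its result. Some members below 5 CPM or beyond 4 per list, given to account for a list (among them Cldn6, Foxa1, Ncam1, Smoc2, Snai1, Twist1, Twist2, Zeb1 and Zeb2), and genes given only by counts were taken from the lists after their values were seen. Some items of the lists are not reported here. SE is the standard error of the log2 fold change and intervals around a mean are SD. Promoter sequences are from RefSeq on GRCm38.p6. A low count limits precision, and floors of 3 counts cover counting error only. The labels give treatment on day 6 and harvest on day 8, and the study's legends give day 7 and day 9.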

Additional observations from a re-analysis of the deposited data

Results flagged for a closer look

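Within each line, the highest and lowest tumor of each named gene was compared with the other 4 by Dixon's gap ratio, with a limit of 0.71 for 5 values. Chance alone exceeds this limit in about 1 of 20 groups. Of 309 groups, 29 exceeded it (9.39%).

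Tumors that stood above their group were Car9 in CT26 replicate 2 at 34.6 CPM (nearest other tumor 14.4), Ccnd2 in 4T1 replicate 3 at 57.3 CPM (nearest other tumor 42), Cdh26 in 4T1 replicate 1 at 1.35 CPM (nearest other tumor 0), Dcn in CT26 replicate 4 at 444 CPM (nearest other tumor 331), Fabp4 in 4T1 replicate 5 at 61.5 CPM (nearest other tumor 26.9), Fcer1a in 4T1 replicate 5 at 4.91 CPM (nearest other tumor 2.14), Fosl1 in 4T1 replicate 2 at 5.13 CPM (nearest other tumor 0.831), Gpx7 in 4T1 replicate 5 at 21.7 CPM (nearest other tumor 14.6), Itgav in CT26 replicate 3 at 30.9 CPM (nearest other tumor 28.3), Ncam1 in 4T1 replicate 4 at 10.2 CPM (nearest other tumor 6.56), Ndst4 in 4T1 replicate 2 at 1.43 CPM (nearest other tumor 0.339), Pgk1 in CT26 replicate 2 at 1733 CPM (nearest other tumor 1414), S100a8 in CT26 replicate 4 at 13.5 CPM (nearest other tumor 6.61), Serpinb2 in CT26 replicate 2 at 45.4 CPM (nearest other tumor 19), Serpinb2 in 4T1 replicate 1 at 10.2 CPM (nearest other tumor 2.28), Serpinb5 in CT26 replicate 5 at 0.478 CPM (nearest other tumor 0), Snai1 in CT26 replicate 2 at 5.85 CPM (nearest other tumor 2.88), Sox9 in CT26 replicate 2 at 20.5 CPM (nearest other tumor 13.8), Tfap2a in CT26 replicate 2 at 3.9 CPM (nearest other tumor 1.73) and Tsix in 4T1 replicate 3 at 319 CPM (nearest other tumor 18.1). Tumors that stood below their group were Acod1 in 4T1 replicate 2 at 0.856 CPM (nearest other tumor 2.33), Cat in CT26 replicate 4 at 19.3 CPM (nearest other tumor 23.6), Egln3 in 4T1 replicate 5 at 17.8 CPM (nearest other tumor 27.2), Gbp2 in CT26 replicate 5 at 416 CPM (nearest other tumor 836), Ly6a in CT26 replicate 5 at 1235 CPM (nearest other tumor 1786), Mtap in CT26 replicate 2 at 94.2 CPM (nearest other tumor 130.2), Mtap in 4T1 replicate 5 at 407 CPM (nearest other tumor 475), Prrx1 in 4T1 replicate 4 at 25.4 CPM (nearest other tumor 29.9) and Tagln in CT26 replicate 2 at 0.976 CPM (nearest other tumor 2.39). Replicate 2 of CT26 accounted for 8 of these values. The direction of the Tsix difference turned without 4T1 replicate 3.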

How the results depend on the processing

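The text names 156 tested genes, 152 of them called, and 129 were called in the same direction in every one of the 23 alternatives that could fit them. With technical replicate 2 alone, which left 9663 genes to test, the counts fell to 2849 genes called, 1446 higher in CT26 and 1403 higher in 4T1, to 904 and 896 of them by 2-fold or more, and to 231 list members. Every other alternative kept these counts within 1.5 times. DESeq2 called 5714 genes, limma voom 6317, and the tumors of the shared pools 3724. Leaving out each tumor in turn gave 4823 to 5718 calls (2427 to 2840 higher in CT26 and 2396 to 2878 higher in 4T1), 1377 to 1529 and 1300 to 1513 of 2-fold or more, and 332 to 367 list members. The sign turned for Pecam1 without CT26 replicate 2 (-0.0401 to 0.17 over the tumors left out) and for Tsix in the shared pools (0.95), with pool as a covariate (0.97) and without 4T1 replicate 3 (-2.28 to 0.50 over the tumors left out). Neither gene was called in the main comparison. Besides Mki67, calls that rested on a tumor were those of Hba-a2 without CT26 replicates 2, 4 or 5 or 4T1 replicates 1, 2 or 4 (adjusted p 0.0664 to 0.101), Ighm without CT26 replicates 1 or 3 or 4T1 replicates 1, 2 or 4 (adjusted p 0.0589 to 0.0816) and Myh4 without CT26 replicates 1 or 3 or 4T1 replicates 1, 2, 3 or 4 (adjusted p 0.0536 to 0.179). Besides the genes given in the report, log2 fold changes that moved by over 1.5 times in the shared pools were those of Cd8a (2.35), Ereg (5.54), Fosl1 (2.82), Hba-a2 (1.46), Ighm (1.56), Igkc (5.90), Il33 (2.72), Krt20 (5.66), Myh4 (2.77), Serpinb2 (1.61), Snai2 (3.18) and Twist2 (2.00). The same held without 4T1 replicate 1 for 1700012B09Rik (8.18), Gm35618 (8.86), Rhox5 (7.62), Serpinb2 (3.82) and Slurp1 (8.54), without 4T1 replicate 2 for 3110039M20Rik (9.38), Fosl1 (5.82), Ndst4 (7.96) and Slurp1 (8.75), without 4T1 replicate 3 for Gzmf (7.78) and without 4T1 replicate 4 for Foxa1 (4.12) and Slurp1 (7.30). It also held without CT26 replicate 1 for Myh4 (1.09), without CT26 replicate 3 for Fgfbp1 (-8.82) and Krt14 (-6.65), and without CT26 replicate 5 for Csn3 (1.62) and Gpa33 (-7.81). Cdh26 without 4T1 replicate 1 and Serpinb5 without CT26 replicate 5 had no count left in that line, so no fold is given. In the shared pools 15 named genes lost their call, with fewer tumors in the fit, and with pool as a covariate 5 did. Tumors of the lines with the same replicate number did not all deviate together (correlations 0.04, 0.11, -0.09, -0.27 and 0.25 for numbers 1 to 5), so the numbers were not taken as pairs. With the replicate block, 5365 genes were called (2708 and 2657), 1351 and 1370 of them by 2-fold or more, and 349 list members, and 5907 in the CAT-ABP tumors (2858 and 3049), and among named genes the call was lost for Myh4. In simulated counts for the alum comparison, 12817 genes with 200 changed, edgeR recovered 10.4% of 1.5-fold, 47.8% of 2-fold and 89.4% of 4-fold changes. Far fewer genes were changed there than the 5434 called in the tumors, and the adjusted p depends on that share. The share of differences missed in the tumors therefore cannot be read from these rates.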

Other observations

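Tissue next to the tumor can enter a whole-tumor sample, and markers of muscle, skin, fat, nerve and blood were measured. The summed level of 12 skeletal muscle genes was 106 to 1088 CPM (median 244) in the CT26 tumors and 199 to 651 CPM (median 256) in the 4T1 tumors, so the groups overlapped. Of 8 muscle genes tested, 1 was called, the fast myosin gene Myh4, which was at 82.9, 7.32, 31.7, 6.91 and 3.35 CPM in the CT26 tumors and 2.37, 5.42, 1.98, 6.05 and 15.2 CPM in the 4T1 tumors. Myh4 had a log2 fold change of 2.15 (SE 0.74, adjusted p = 0.0289). CT26 replicate 1 stood above the others, and the call was lost without it (adjusted p = 0.179). The keratinocyte genes Krt1 and Dsg1a had no count in any tumor, and Krt10, the 1 epidermal gene tested, was not called. Of the 5 adipocyte genes tested (of 11 in the list), 1 was called, Fabp4, which adipocytes, macrophages and endothelial cells express (log2 fold change 1.26, SE 0.26, adjusted p = 0.00115). Both nerve genes tested were higher in 4T1, Mbp, myelin basic protein (4.55 ± 1.9 against 11.3 ± 2.81 CPM, log2 fold change -1.34), and Ncam1, a neural cell adhesion molecule (1.5 ± 0.6 against 6.73 ± 2.03 CPM, log2 fold change -2.30). Of 4 erythroid genes tested, 2 were higher in CT26, both α-globin genes, at log2 fold changes of 0.97 and 0.79. These 2 genes are near-identical copies, so how their reads were divided is uncertain.

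Xist, the RNA that silences 1 X chromosome in female cells, was at 33.3, 35.6, 34.9, 23.3 and 16.5 CPM in the CT26 tumors and 11.2, 18.3, 18.6, 22.1 and 12.4 CPM in the 4T1 tumors. Xist had a log2 fold change of 0.77 (SE 0.24, adjusted p = 0.0154), with overlap and no call in the shared pools (adjusted p = 0.0591). Its antisense partner Tsix was at 21, 17.1, 21, 22.8 and 13.6 CPM in the CT26 tumors and 13.9, 5.99, 319, 15.7 and 18.1 CPM in the 4T1 tumors and was not called (adjusted p = 0.0713). Tsix in 4T1 replicate 3 was high in both technical libraries, at 343 and 211 CPM. Xist and Tsix overlap on opposite strands, and whether the counting used strand is not given in the sources used here. The Y-linked gene Eif2s3y had no count in any of the 10 tumors and Ddx3y had 7 counts over all of them.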
